A study of Homo sapiens with 4 samples.

Results

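The zinc finger genes described here are those named ZNF and a number whose chromosome in the table is other than 19. They were chosen by symbol and chromosome, which gave 217 of the 17634 genes listed, and they lie on 20 chromosomes. A further 216 ZNF genes lie on chromosome 19. A gene also had to be listed, so the members were in part selected on their counts (summed over the libraries, 10 to 65642 for the 217 genes), and the family was singled out with its fold changes already known, so the counts of changed genes below are descriptions. All 217 symbols were in GENCODE release 29 as protein-coding genes, and 216 were in RefSeq on GRCh38.p14, all on the chromosome that the table gives.

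Most ZNF genes encode C2H2 zinc finger proteins, in which a pair of cysteines and a pair of histidines hold a zinc ion in each finger, and arrays of fingers read DNA sequence. Many also carry a KRAB domain, which recruits the co-repressor TRIM28 and, through it, the histone methyltransferase SETDB1 and HP1 proteins, and many of these proteins bind transposable elements. Genes of the family arose largely by tandem duplication, so that they often stand in clusters, the greatest number of them on chromosome 19.

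PC-3-RRM2 cells (2 libraries) were compared with PC-3-EV cells (2 libraries), to see which transcripts differ when the small subunit of ribonucleotide reductase is raised. PC-3 is an established human prostate cancer line. PC-3-RRM2 cells had been transduced with a lentivirus carrying RRM2 and PC-3-EV cells carried the empty vector; the study's methods describe stable lines kept under puromycin. No source used here says whether each line is 1 clone or a pool, or whether replicate libraries had cultures of their own, so the p-values reflect the spread among 4 libraries, part or all of which may be technical.

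The PC-3-RRM2 libraries held 30149181 and 30419769 estimated counts, against 37801301 and 30778321 in PC-3-EV. RRM2 itself had 96.6 and 98.8 CPM in PC-3-RRM2, against 21.8 and 20.8 CPM in PC-3-EV (4.59-fold), where CPM is the usual unit of counts divided by the scaled library size. The 10 markers fixed for the line summed to 2440 and 2310 CPM in PC-3-RRM2, against 2540 and 2630 CPM in PC-3-EV, with EPCAM and CDH1 called higher and HOXB13 lower. EPCAM was at 103 and 117 CPM in PC-3-RRM2, against 14.4 and 14.4 CPM in PC-3-EV, and HOXB13 at 71.2 and 61.9 CPM, against 191 and 207 CPM. Other-cell markers, whose part in the results was not tested, summed to 2.17 and 1.58 CPM in PC-3-RRM2, against 1.11 and 0.719 CPM in PC-3-EV, for leukocytes (4 of 6 markers listed). The sums were 97 and 71.4 CPM, against 90.4 and 106 CPM, for 6 fibroblast genes, and 36 and 36.3 CPM, against 76.7 and 77.1 CPM, for 5 endothelial genes. Of the endothelial genes, PECAM1, KDR and ROBO4 were called lower (log2 fold changes -1.35, -0.70 and -1.69), and CDH5 had 0 counts in both PC-3-EV libraries. LUM was called higher and COL3A1 and PDGFRA lower among the fibroblast genes, and CSF1R higher among the leukocyte genes. COL1A1, not called, had 80.7 and 55.7 CPM of the fibroblast sums in PC-3-RRM2. Each gene is expressed per whole culture, so fewer cells that express it and less RNA per cell cannot be told apart.

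The promoters of 6 genes on which the results turn are shown because they hold the sequence elements counted below and because 4 of them belong to genes that were higher and 2 to genes that were lower in PC-3-RRM2. Each is the RefSeq window on GRCh38.p14 from 250 bases before to 50 bases after the gene's start in RefSeq, written 5′ to 3′ on the gene's own strand. They lie at chr18:76495193-76495492 (minus strand) for ZNF516, chr11:9460762-9461061 (plus) for ZNF143, chr16:31873557-31873856 (plus) for ZNF267, chr9:96418321-96418620 (minus) for ZNF367, chr10:75401867-75402166 (minus) for ZNF503 and chr17:5191819-5192118 (minus) for ZNF594. The start in RefSeq can differ from that in the deposited counts, where ZNF516 spans 76357682 to 76495191, so that its whole window lies upstream. Capitals mark matches, on either strand, to the GC box read by Sp1 and KLF factors (GGGCGG), the CCAAT box of NF-Y, an ETS core (CCGGAAG), a cyclic AMP response element (TGACGTCA) or a form of the E2F site (TTTCCCGC).
ZNF516: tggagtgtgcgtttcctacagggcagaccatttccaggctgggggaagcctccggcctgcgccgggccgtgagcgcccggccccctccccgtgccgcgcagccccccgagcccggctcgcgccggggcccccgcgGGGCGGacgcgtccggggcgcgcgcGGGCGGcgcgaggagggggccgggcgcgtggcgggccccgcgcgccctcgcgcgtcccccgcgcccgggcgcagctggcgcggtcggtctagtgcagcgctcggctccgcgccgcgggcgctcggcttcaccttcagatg
ZNF143: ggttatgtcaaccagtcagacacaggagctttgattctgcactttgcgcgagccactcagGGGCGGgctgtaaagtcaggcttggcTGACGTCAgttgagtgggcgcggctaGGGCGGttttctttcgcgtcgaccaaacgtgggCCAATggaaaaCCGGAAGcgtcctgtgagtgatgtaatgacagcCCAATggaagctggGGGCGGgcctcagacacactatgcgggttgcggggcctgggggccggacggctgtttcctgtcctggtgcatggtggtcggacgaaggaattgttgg
ZNF267: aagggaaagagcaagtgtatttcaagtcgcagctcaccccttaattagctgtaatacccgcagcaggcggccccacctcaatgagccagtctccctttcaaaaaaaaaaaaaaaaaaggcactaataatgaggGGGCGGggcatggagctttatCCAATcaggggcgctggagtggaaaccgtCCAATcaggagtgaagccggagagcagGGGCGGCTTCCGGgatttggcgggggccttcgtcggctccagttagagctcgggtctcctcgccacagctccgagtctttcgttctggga
ZNF367: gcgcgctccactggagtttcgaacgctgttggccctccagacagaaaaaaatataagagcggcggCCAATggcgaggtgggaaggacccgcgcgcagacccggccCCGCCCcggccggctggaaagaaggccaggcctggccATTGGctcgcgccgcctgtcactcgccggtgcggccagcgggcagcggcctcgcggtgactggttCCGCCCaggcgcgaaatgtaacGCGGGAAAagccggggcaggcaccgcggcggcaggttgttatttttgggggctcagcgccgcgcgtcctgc
ZNF503: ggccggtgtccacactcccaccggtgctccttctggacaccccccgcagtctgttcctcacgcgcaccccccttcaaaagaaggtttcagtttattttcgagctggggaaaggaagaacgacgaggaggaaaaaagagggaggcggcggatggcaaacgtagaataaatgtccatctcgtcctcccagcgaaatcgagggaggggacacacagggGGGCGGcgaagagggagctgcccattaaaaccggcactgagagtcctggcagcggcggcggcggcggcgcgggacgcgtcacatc
ZNF594: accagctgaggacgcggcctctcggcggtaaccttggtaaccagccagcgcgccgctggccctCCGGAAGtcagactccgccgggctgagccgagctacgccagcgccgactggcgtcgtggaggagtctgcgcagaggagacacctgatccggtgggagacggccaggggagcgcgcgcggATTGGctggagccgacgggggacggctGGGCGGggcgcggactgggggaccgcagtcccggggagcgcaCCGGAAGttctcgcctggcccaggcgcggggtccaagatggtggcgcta
In ZNF267 a GC box and an ETS core on the other strand stand side by side and read as 1 run of capitals.

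These windows differ in how many CpG dinucleotides they hold: 53 in ZNF516, 37 in ZNF367 and in ZNF594, 26 in ZNF503, 20 in ZNF143 and 16 in ZNF267. Of the 217 genes, 180 had a RefSeq window, 174 of them among the genes tested. The ETS core CCGGAAG was in 70 of these 174 windows (40.2%), against 2087 of 11680 windows of all genes tested (17.9%), and in 78 of 176 windows of chromosome 19 ZNF genes (44.3%). By call, it was in 2 of 7 windows of genes called higher, 10 of 27 of genes called lower and 58 of 140 of genes not called, and the median log2 fold change was -0.16 with it (70 genes) and -0.21 without it (104 genes). GC boxes were in 64.9% of the windows, against 67.9% for all genes, and CCAAT boxes in 46.0%, against 36.5%. The TATA box (TATAAA) was in 4.60%, against 6.28%, and the YY1 site (AAGATGGC) in 2.87%, against 4.92%. Such matches describe the letters and are no evidence of binding.

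Among the 210 genes that could be tested, more were lower than higher in PC-3-RRM2. With thresholds of 0.05 on the adjusted p and 1.5 on the fold change (edgeR quasi-likelihood test, adjusted over 15781 genes), 9 genes were higher (4.29%), 33 were lower (15.7%) and 168 were not called. Over all genes tested the same thresholds called 18.2%, with 9.97% higher and 8.19% lower. The median log2 fold change of the 210 genes was -0.18, with quartiles of -0.46 and 0.06, against 0.00 over all genes and 0.01 over the 14033 other genes of the same chromosomes. Values below 0 were found for 141 genes and above 0 for 69. Both PC-3-RRM2 libraries lay below both PC-3-EV libraries for 111 genes, above them for 46, and the libraries overlapped for 53, where 33.2% of all genes lay below and 35.8% above. With any fold change, an adjusted p below 0.05 was reached by 21 higher and 57 lower genes, against 18.8% higher and 15.5% lower over all genes.

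The shift was of like size in each pairing of the 4 libraries, which share libraries with each other. The median log2 ratio was -0.17 for PC-3-RRM2 replicate 1 and -0.17 for replicate 2 over PC-3-EV replicate 1, and -0.19 for both over PC-3-EV replicate 2. Summed over the family, expression was 6720 and 7030 CPM in PC-3-RRM2, against 7550 and 7550 CPM in PC-3-EV. Without PC-3-EV replicate 1 the fitted median log2 fold change was -0.214, against -0.022 over all genes. Without PC-3-EV replicate 2 it was -0.217, against -0.025. In either case 1 PC-3-EV library was left. By more than 2-fold, 3 genes were higher and 8 lower, and the share of all genes past that fold was not counted. Tested against a 1.5-fold change itself (glmTreat of edgeR), 1 gene was higher and 7 were lower (3.33%), against 4.95% higher and 3.04% lower over all genes.

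ZNF516, known in mouse as an activator of the thermogenic gene Ucp1 in brown fat, stood highest among the well-counted genes. ZNF516 (chromosome 18, 76357682 to 76495191, minus strand, GRCh38) had 28.5 and 26.0 CPM in PC-3-RRM2, against 9.78 and 8.96 CPM in PC-3-EV. Both PC-3-RRM2 libraries were far above both PC-3-EV libraries, a 2.90-fold difference (log2 fold change 1.54, SE 0.116, edgeR adjusted p = 7.64e-05). It was the single gene of those called higher that also passed a test against a 1.5-fold change itself (glmTreat). The gene LOC101927989 overlaps it on the opposite strand, and the strand setting of the counting is not given in the sources used here.

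ZNF267, ZNF695, ZNF273 and ZNF367 rose at moderate levels. ZNF267 (chromosome 16, 31873758 to 31917309, plus strand) had 31.6 and 31.4 CPM in PC-3-RRM2, against 18 and 19 CPM in PC-3-EV (log2 fold change 0.77, SE 0.0976, edgeR adjusted p = 0.000871). ZNF695 (chromosome 1, 246945547 to 247008094, minus strand) had 6.32 and 7.65 CPM, against 4.10 and 4.02 CPM. The read-through gene ZNF670-ZNF695 overlaps it on the same strand, so reads of the pair may be shared. ZNF273, a gene of the chromosome 7 cluster described below, had 5.17 and 5.93 CPM in PC-3-RRM2, against 2.70 and 3.76 CPM in PC-3-EV, and was not called without PC-3-EV replicate 1 (log2 fold change 0.54 in place of 0.79, edgeR adjusted p = 0.157). ZNF367 (chromosome 9, 96385943 to 96418388, minus strand) had 8.33 and 7.42 CPM in PC-3-RRM2, against 5.29 and 4.64 CPM in PC-3-EV (log2 fold change 0.66). In each of these the groups did not overlap, but ZNF367 was not called without PC-3-EV replicate 2 (0.528, edgeR adjusted p = 0.136) or PC-3-RRM2 replicate 1 (0.576, under the fold threshold).

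ZNF143, an activator of small nuclear RNA genes and of many protein-coding promoters, lay just inside the fold threshold. ZNF143 (chromosome 11, 9460965 to 9528525, plus strand) had 38.1 and 39.3 CPM in PC-3-RRM2, against 25.6 and 25.6 CPM in PC-3-EV (1.51-fold, SE 0.0900 on the log2 scale, edgeR adjusted p = 0.00198). The libraries of each group nearly coincided, yet the log2 fold change of 0.597 came to lie under the threshold without PC-3-EV replicate 1 (0.576), PC-3-EV replicate 2 (0.551) or PC-3-RRM2 replicate 2 (0.575), and with an offset for GC content (0.550). ZNF165, a cancer-testis gene with a SCAN domain, had 3.69 and 4.75 CPM in PC-3-RRM2, against 2.17 and 2.29 CPM in PC-3-EV (log2 fold change 0.92, SE 0.198, edgeR adjusted p = 0.00961).

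The remaining pair of higher genes rested on few counts. ZNF718, on the tip of the chromosome 4 short arm, had 12 and 14 counts in PC-3-RRM2, against 4 and 2 counts in PC-3-EV, and ZNF521, a cofactor known from blood progenitor cells, had 26 and 35 counts, against 18 and 14. Their log2 fold changes were 2.24 (SE 0.570, edgeR adjusted p = 0.0190) and 1.10 (SE 0.336, edgeR adjusted p = 0.0379). Neither was called by DESeq2 (adjusted p = 0.152 for ZNF718 and 0.246 for ZNF521). ZNF718 was not called without PC-3-EV replicate 1 (edgeR adjusted p = 0.0835), PC-3-EV replicate 2 (0.160) or PC-3-RRM2 replicate 2 (0.0669), nor ZNF521 without the same libraries (0.162, 0.195 and 0.179).

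**Figure D1:**
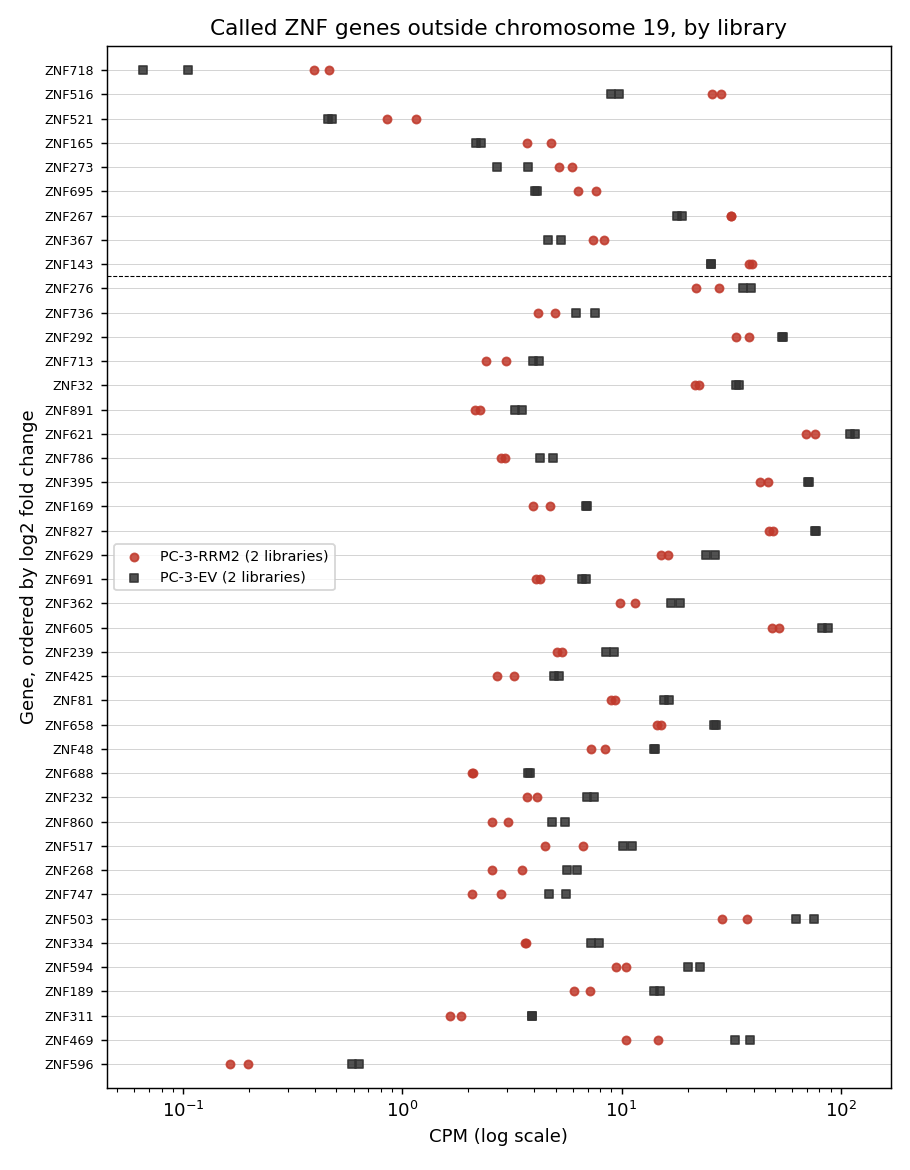
CPM (log axis) of the 9 higher and 33 lower zinc finger genes in each library, ordered by log2 fold change and divided by a dashed line; circles are the 2 PC-3-RRM2 libraries and squares the 2 PC-3-EV libraries. ZNF516 stands at 28.5 and 26.0 CPM in PC-3-RRM2, against 9.78 and 8.96 CPM in PC-3-EV, while most of the lower genes have values under 30 CPM in PC-3-EV.

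Among the lower genes, ZNF469, mutated in brittle cornea syndrome and linked to collagen production, had the largest difference of those with 1 CPM or more. ZNF469 (chromosome 16, 88427471 to 88440758, plus strand) had 14.7 and 10.5 CPM in PC-3-RRM2, against 33.1 and 38.5 CPM in PC-3-EV (log2 fold change -1.51, SE 0.165, edgeR adjusted p = 0.000457). ZNF503 is a repressor of the NET family together with ZNF703. ZNF503 (chromosome 10, 75279726 to 75401895, minus strand) had 37.2 and 28.7 CPM in PC-3-RRM2, against 62.4 and 75.4 CPM in PC-3-EV (log2 fold change -1.06, SE 0.143, edgeR adjusted p = 0.00114). In both genes the libraries of a group lay well apart, but the groups did not overlap. The antisense genes ZNF503-AS1 and ZNF503-AS2 overlap ZNF503, and reads from the 2 strands may have been mixed. Its partner ZNF703 was not called, at 19 and 14.4 CPM in PC-3-RRM2, against 15.8 and 18 CPM in PC-3-EV (log2 fold change -0.02, edgeR adjusted p = 0.946).

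ZNF189, ZNF594, ZNF334 and ZNF311 were each lower by more than 2-fold, with replicates close to each other. ZNF189 (chromosome 9, 101398854 to 101410661, plus strand) had 6.06 and 7.15 CPM in PC-3-RRM2, against 15.0 and 14.1 CPM in PC-3-EV (log2 fold change -1.14). ZNF594 (chromosome 17, 5179536 to 5191884, minus strand) had 9.42 and 10.5 CPM, against 22.8 and 20.1 CPM (log2 fold change -1.11, SE 0.125, edgeR adjusted p = 0.000519). ZNF334, on chromosome 20, had 3.62 and 3.66 CPM in PC-3-RRM2, against 7.93 and 7.29 CPM in PC-3-EV. ZNF311, which lies near the major histocompatibility complex on chromosome 6, had 1.65 and 1.85 CPM, against 3.89 and 3.92 CPM. These 4 genes, ZNF469, ZNF503 and ZNF658 were the 7 lower genes to keep their call in each of 14 alternatives computed gene by gene. The test against a 1.5-fold change was among these alternatives. So was the main fit at any fold change, where no call of the main fit can be lost. ZNF658, reported to repress genes in response to zinc, had 15.1 and 14.6 CPM in PC-3-RRM2, against 26.5 and 27.0 CPM in PC-3-EV (log2 fold change -0.85, SE 0.102, edgeR adjusted p = 0.000669). ANKRD20A1 overlaps ZNF658 on the opposite strand.

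Some lower genes with over 30 CPM in both groups changed by less than 2-fold. ZNF621, on chromosome 3, had 69.3 and 76.7 CPM in PC-3-RRM2, against 116 and 110 CPM in PC-3-EV (log2 fold change -0.63, and -0.56, under the threshold, without PC-3-RRM2 replicate 1). ZNF827, which brings the NuRD complex to telomeres, had 47.1 and 48.9 CPM, against 77.4 and 76.6 CPM (log2 fold change -0.68, SE 0.0791, edgeR adjusted p = 0.000579). ZNF395, a gene induced in hypoxia, had 46.8 and 42.8 CPM in PC-3-RRM2, against 71.5 and 70.7 CPM in PC-3-EV (log2 fold change -0.67, SE 0.0858, edgeR adjusted p = 0.000942). In these 3 genes the spread within a group was small beside the difference. ZNF292, whose variants cause a neurodevelopmental disorder, had 33.4 and 38.1 CPM, against 54.3 and 54.2 CPM, and its log2 fold change of -0.60 was -0.51 without PC-3-RRM2 replicate 1. ZNF276 was the lower gene nearest to the fold threshold (log2 fold change -0.59), overlaps FANCA and VPS9D1 on the opposite strand, and was not called without PC-3-RRM2 replicate 2 (-0.42) or PC-3-EV replicate 2 (-0.565).

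At the other end of the range, ZNF596 on chromosome 8 had 5 and 6 counts in PC-3-RRM2, against 24 and 18 counts in PC-3-EV. Its log2 fold change of -1.74 was the lowest of the family, but it was not called by DESeq2 (adjusted p = 0.162) nor without PC-3-EV replicate 1 (edgeR adjusted p = 0.114), PC-3-EV replicate 2 (0.0747) or PC-3-RRM2 replicate 1 (0.0639). Of the 42 genes called, 8 kept their call in each of these alternatives, 19 lost it only in the test against a 1.5-fold change, and 15 lost it in at least 1 other. Just outside the thresholds stood ZNF684 (log2 fold change 0.58) and ZNF287 (-0.58) by fold, and ZNF467 (0.81, edgeR adjusted p = 0.0843) and ZNF396 (-0.78, edgeR adjusted p = 0.0529) by p. ZNF143 (0.60), ZNF367 (0.66), ZNF276 (-0.59) and ZNF736 (-0.59) stood just inside by fold.

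Several of the best-known genes of the group were not called. ZNF217, an oncogene of the chromosome 20 region amplified in breast cancer that works with the co-repressor CtBP, had 248 and 268 CPM in PC-3-RRM2, against 252 and 254 CPM in PC-3-EV, with overlapping libraries (log2 fold change 0.03, edgeR adjusted p = 0.790). ZNF281, a factor of epithelial-mesenchymal transition, had 118 and 137 CPM, against 142 and 137 CPM. ZNF207, which carries the checkpoint protein BUB3 to kinetochores, had 108 and 126 CPM, against 116 and 109 CPM. Neither difference exceeded the spread between libraries. ZNF185, an actin-binding LIM-domain protein with reduced expression in prostate cancer, had 112 and 122 CPM in PC-3-RRM2, against 132 and 139 CPM in PC-3-EV, and ZNF318 49.7 and 56.3 CPM, against 54.1 and 51.7 CPM. The log2 fold change was -0.22 for ZNF185 (edgeR adjusted p = 0.0663) and 0.00 for ZNF318.

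Other genes with known roles passed only part of the thresholds or neither. ZNF451, a SUMO ligase, had 86.4 and 96.6 CPM in PC-3-RRM2, against 71.4 and 69.2 CPM in PC-3-EV, with an adjusted p of 0.0111 (edgeR) but a fold change of 1.30. ZNF598, the ubiquitin ligase of collided ribosomes, had 51.7 and 36.6 CPM, against 56.0 and 68.1 CPM (log2 fold change -0.49, edgeR adjusted p = 0.0520). ZNF365 had 29.3 and 30.4 CPM in PC-3-RRM2, against 44.6 and 40.7 CPM in PC-3-EV (fold change 1.43, edgeR adjusted p = 0.00477). Of these 3 genes, ZNF598 had the PC-3-RRM2 libraries farthest apart. ZNF711, a gene of X-linked intellectual disability, had a log2 fold change of -0.31. The values were -0.24 for ZNF202, a repressor of lipid genes, -0.17 for ZNF410, an activator of CHD4, -0.16 for ZNF148, -0.15 for ZNF638, which silences unintegrated viral DNA with the HUSH complex, and -0.08 for ZNF341, an activator of STAT3. ZNF750, a factor of epidermal differentiation, had 3 and 8 counts in PC-3-RRM2, against 3 and 0 in PC-3-EV, and was not tested. The other 6 genes left untested for low counts were ZNF300, ZNF454 and ZNF474 on chromosome 5, ZNF660 and ZNF662 on chromosome 3, and ZNF727 on chromosome 7.

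Per kilobase of exon, levels ran from 0.0156 to 71.1 CPM, and the genes at the top were not among those called. ZNF664 had the highest level (63.5 and 69.8 CPM per kilobase in PC-3-RRM2, against 75.6 and 75.6 in PC-3-EV), followed by ZNF248 (59.9 and 65.9, against 76.2 and 75.4), ZNF217, ZNF770 and ZNF22. ZNF664 and ZNF248 did not differ from each other beyond their spread, and the mean fell to 41.3 CPM per kilobase in ZNF217. The log2 fold changes of ZNF664 and ZNF248 were -0.18 (edgeR adjusted p = 0.0962) and -0.27 (edgeR adjusted p = 0.0270).

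By chromosome, 17 of 20 medians were below 0 and 18 of 20 were below the median of the same chromosome's other genes. On 13 chromosomes at least 1 gene was lower, on 8 at least 1 was higher, and on 5 none was called. On chromosome 8 all 14 genes had a log2 fold change below 0, with a median of -0.36, against -0.03 for the other 535 genes tested there. The 3 called, all lower, were ZNF596, ZNF395 and ZNF517 (8.79% of the other genes were lower), and the summed level of the 14 was 479 and 490 CPM in PC-3-RRM2, against 596 and 605 CPM in PC-3-EV. On chromosome 12, 10 of 11 genes were below 0, 3 were lower and none higher (9.42% and 6.85% of the other genes), with a median of -0.41, against -0.07 for the other genes, and summed levels of 603 and 649 CPM in PC-3-RRM2, against 759 and 749 CPM in PC-3-EV. On both chromosomes the PC-3-RRM2 sums lay below the PC-3-EV sums. The same held for chromosomes 1, 2, 3, 5, 9, 10, 14, 16 and X. On chromosome 7 the PC-3-RRM2 sums lay above, and elsewhere the sums of the groups overlapped.

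Chromosome 16 held 28 genes tested, of which 6 were lower and ZNF267 was higher. The median was -0.30, against 0.06 for the other 648 genes, of which 11.3% were higher and 4.63% lower. Chromosome 10 had 3 lower and 0 higher of 12 genes (ZNF503, ZNF239 and ZNF32, median -0.20), where 9.20% of the other genes were lower and 9.53% higher. Chromosome 9 had 3 lower and 1 higher of 11 (median -0.24), where 7.73% of the other genes were lower and 9.05% higher. Chromosome 3 had 2 lower and 0 higher of 13 (median -0.28), where 11.1% of the other genes were lower and 7.58% higher. Chromosome X had 1 lower, ZNF81, of 10 (median -0.29), where 7.87% of the other genes were lower. ZNF81 had 9.32 and 9.0 CPM in PC-3-RRM2, against 15.5 and 16.5 CPM in PC-3-EV (log2 fold change -0.81, SE 0.120, edgeR adjusted p = 0.00185). On chromosome 1, 2 of 18 genes were lower, ZNF362 and ZNF691, and 1 was higher, ZNF695 (median -0.12), where 7.14% of the other genes were lower and 11.2% higher. With so few genes on a chromosome, 1 or 2 calls set these shares.

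Chromosomes 4, 6 and 7 had medians above 0, at 0.21, 0.06 and 0.06. On chromosome 7, with 28 genes tested, 4 were lower (ZNF425, ZNF786, ZNF713 and ZNF736) and 1 higher (ZNF273), and the other 788 genes had a median of 0.20, with 6.35% lower and 14.6% higher. Without PC-3-EV replicate 1, ZNF425 was the only one of the 4 still called, with edgeR adjusted p-values of 0.143 for ZNF786, 0.160 for ZNF713 and 0.209 for ZNF736. DESeq2 did not call these 3 either (adjusted p = 0.0959 for ZNF786, 0.162 for ZNF713 and 0.0842 for ZNF736). ZNF713 was also not called without PC-3-EV replicate 2 (edgeR adjusted p = 0.0775) or PC-3-RRM2 replicate 2 (0.111). The summed level there was 489 and 496 CPM in PC-3-RRM2, against 472 and 477 CPM in PC-3-EV. On chromosome 18, where ZNF516 and ZNF521 lie, 2 of 9 genes were higher and 0 lower, with a median of -0.11, where 12% of the other genes were higher and 14.7% lower. No gene was called on chromosomes 2, 5, 14, 15 and 22, which hold 2 to 6 tested genes each.

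**Figure D2:**
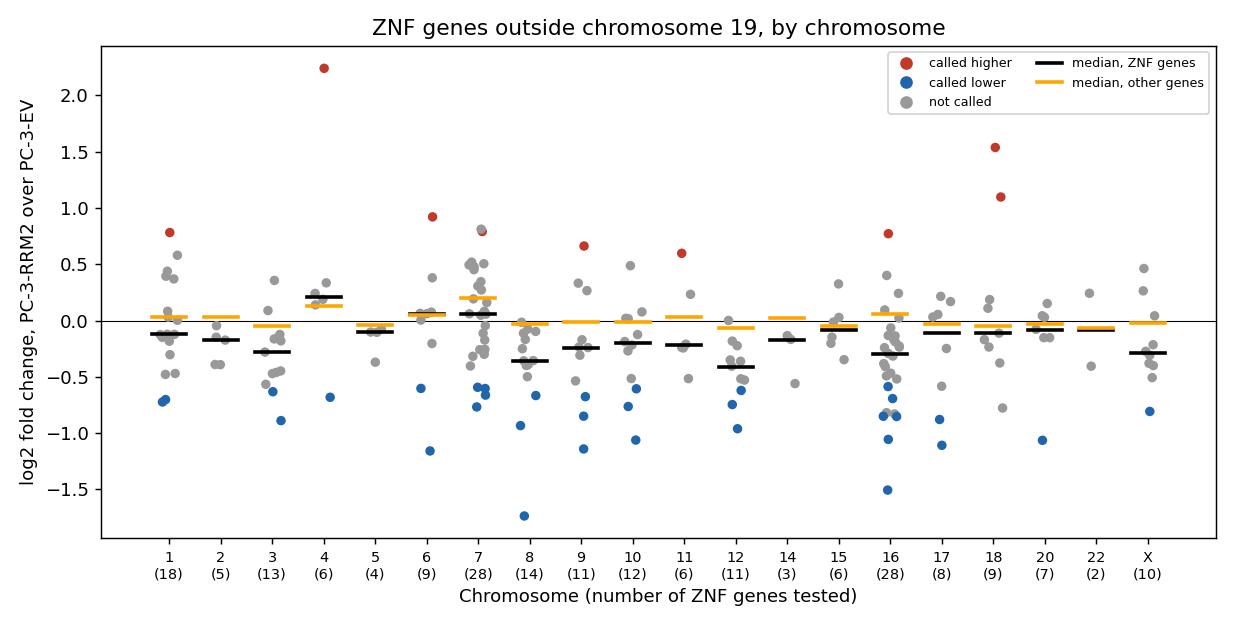
Log2 fold change of PC-3-RRM2 over PC-3-EV for each tested zinc finger gene, by chromosome, with the number tested below each name; red points were called higher, blue lower and gray not called, and black and orange bars are medians of the ZNF genes and of the chromosome's other genes. The black bar is below the orange one on 18 of 20 chromosomes, and all 14 genes of chromosome 8 lie below 0.

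Neighboring genes were then grouped where successive starts were under 250 kilobases apart. This gave 15 clusters of 3 or more genes with 75 genes (74 tested), of which 15 were lower and 3 higher, while outside the clusters 18 were lower and 6 higher of 136. Over all genes tested, 8.19% were lower and 9.97% higher. In 6 clusters all tested genes were below 0, and in 11 the median was. Genes of a cluster share sequence and could share reads, which the deposited counts cannot show.

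The cluster with the most genes lay on the short arm of chromosome 16 (30378312 to 30787220, GRCh38) and held 9 genes, all below 0. In the order of the chromosome these were ZNF48, ZNF771, ZNF768, ZNF747, ZNF764, ZNF688, ZNF785, ZNF689 and ZNF629, with a median of -0.69. ZNF747 had 2.83 and 2.08 CPM in PC-3-RRM2, against 4.65 and 5.59 CPM in PC-3-EV (log2 fold change -1.06, SE 0.209, edgeR adjusted p = 0.00657), and ZNF48 8.40 and 7.29 CPM, against 14.2 and 14.1 CPM. ZNF688 had 2.11 and 2.08 CPM, against 3.83 and 3.73 CPM, and ZNF629 16.3 and 15.1 CPM, against 24.2 and 26.6 CPM. These 4 were called, and ZNF785 between them was at 8.30 and 7.25 CPM in PC-3-RRM2, against 8.30 and 8.76 CPM in PC-3-EV, without a call. The 9 other genes tested in the same span, among them SRCAP, PHKG2 and RNF40, had a median of -0.16, with 1 higher and 1 lower.

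A cluster at the end of the long arm of chromosome 12 (132921433 to 133207112) held 7 genes, again all below 0. ZNF605 had 48.8 and 52.2 CPM in PC-3-RRM2, against 87.5 and 81.9 CPM in PC-3-EV (log2 fold change -0.75, SE 0.0841, edgeR adjusted p = 0.000513). ZNF268 had 2.57 and 3.53 CPM, against 6.24 and 5.62 CPM (log2 fold change -0.96), and ZNF891 2.27 and 2.14 CPM, against 3.52 and 3.27 CPM. ZNF891 was not called by DESeq2 (adjusted p = 0.183) or without PC-3-EV replicate 1 (edgeR adjusted p = 0.177), PC-3-EV replicate 2 (0.0827) or PC-3-RRM2 replicate 2 (0.0743). The other members were ZNF26, ZNF84, ZNF140 and ZNF10, the source of the KRAB domain used in CRISPR interference, which had 3.19 and 3.49 CPM in PC-3-RRM2, against 4.47 and 4.12 CPM in PC-3-EV and was not called. The cluster's median was -0.53, and no other gene tested lay within it.

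On the long arm of chromosome 8 (144720909 to 144950889), ZNF251, ZNF34, ZNF517, ZNF7, ZNF250 and ZNF16 were all below 0, with a median of -0.30. Only ZNF517 was called, at 6.65 and 4.48 CPM in PC-3-RRM2, against 10.2 and 11.1 CPM in PC-3-EV (log2 fold change -0.93, SE 0.195, edgeR adjusted p = 0.00841), and LOC100130027 overlaps it on the opposite strand. ZNF251, the member of highest CPM, had 96.5 and 105 CPM, against 129 and 129 CPM, and did not reach the fold threshold. The 3 other genes tested within the span had a median of -0.68, with 2 lower, so the zinc finger genes did not stand below their neighbors there.

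A cluster on the long arm of chromosome 7 (64313873 to 64991037) had log2 fold changes above 0 in 5 of 6 genes. ZNF273 was called, and ZNF680 (12.3 and 16.2 CPM in PC-3-RRM2, against 9.89 and 11.0 CPM in PC-3-EV), ZNF107 (15.1 and 18 CPM, against 11.2 and 12.3 CPM) and ZNF138 (13.5 and 15.6 CPM, against 11.9 and 11.0 CPM) had log2 fold changes of 0.45, 0.49 and 0.35 without a call. ZNF117 had 3.79 and 7.32 CPM in PC-3-RRM2, against 5.47 and 5.0 CPM in PC-3-EV, with overlapping libraries, and shares its place with ERV3-1. ZNF736, the first gene of the cluster, was lower at 4.15 and 4.98 CPM, against 7.56 and 6.18 CPM, a call that was lost without PC-3-EV replicate 1 (log2 fold change -0.46 in place of -0.59) or PC-3-RRM2 replicate 1 (-0.47) and by DESeq2 (adjusted p = 0.0842). The cluster's median was 0.40. On chromosome 4 (53285 to 499172), ZNF595, ZNF718, ZNF141 and ZNF721 were all above 0, with a median of 0.21, and only ZNF718 was called.

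**Figure D3:**
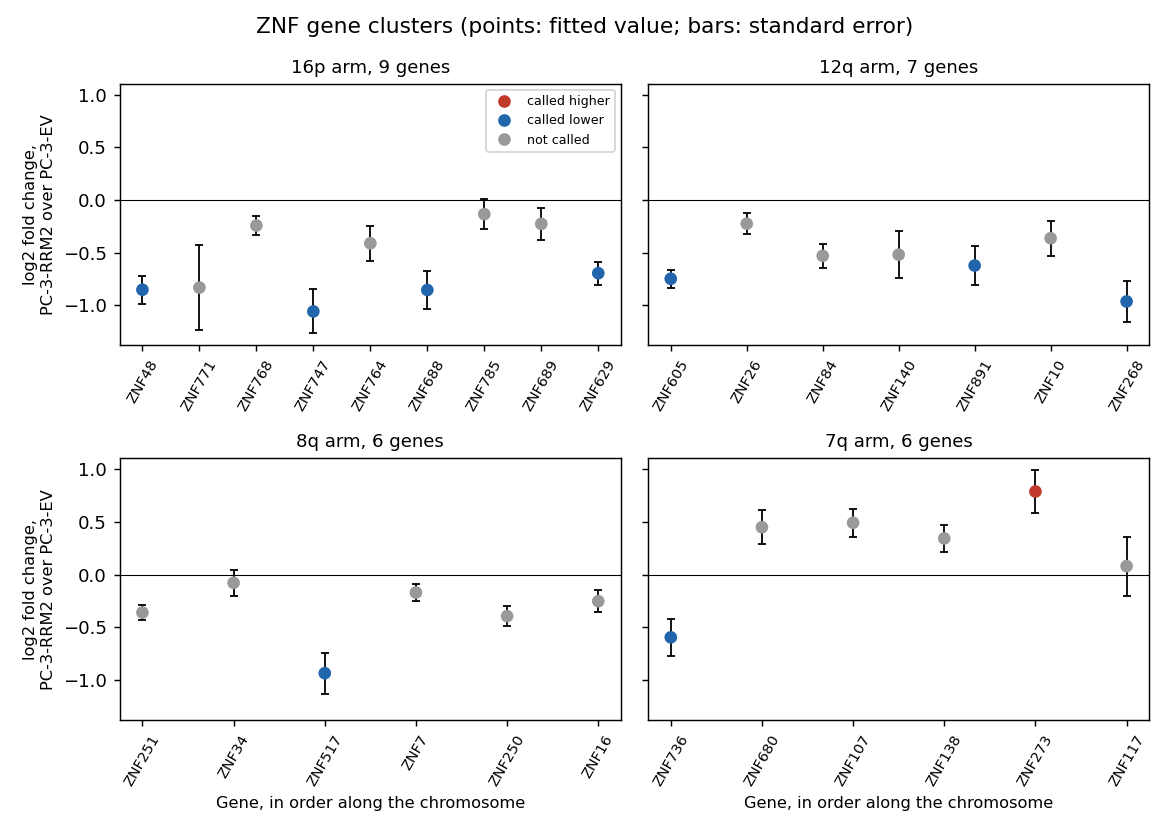
Fitted log2 fold change of PC-3-RRM2 over PC-3-EV with its standard error for the genes of 4 clusters, in order along the chromosome; red was called higher, blue lower and gray not called. All 9 genes of the chromosome 16 cluster, all 7 of chromosome 12 and all 6 of chromosome 8 lie below 0, and 5 of 6 on chromosome 7 above it.

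Base composition moved with the difference between replicates. Across the 210 genes, the log2 difference of replicate 2 over replicate 1 correlated with transcript GC content at r = -0.67 in PC-3-RRM2 and 0.47 in PC-3-EV, against -0.58 and 0.34 over 15096 genes. The log2 fold change between the groups correlated with GC content at r = -0.21 (Spearman's rho -0.24) across the 210 genes and -0.05 (rho -0.13) over all genes. These are correlations across genes of the same 4 libraries, and genes are not independent replicates. After an offset per library for GC content, the median was -0.19, with 9 genes higher and 36 lower. Over all 15096 genes the same offset gave 1628 higher and 1293 lower, with a median of 0.008. Under that offset the chromosome 16 cluster of 9 genes had a median of -0.62, with 4 lower, and the chromosome 12 cluster a median of -0.59, with 4 lower. The chromosome 7 cluster had a median of 0.31, with 2 genes below 0.

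When the 210 genes were split by the quartiles of GC content, the set up to 41.0% GC had a median log2 fold change of 0.08, with 4 higher and 4 lower, the same as the 0.08 of the other genes in that range. The next 3 sets had medians of -0.29, -0.16 and -0.23, against 0.06, 0.02 and -0.08 for other genes in the same ranges. Calls were 2 higher and 13 lower in the set from 41.0% to 45.7% GC, 3 and 6 up to 54.4% and 0 and 10 above it. Of the other genes, from the lowest GC range up, 11%, 10.9%, 10.9% and 8.84% were higher and 5.49%, 6.38%, 8.02% and 9.97% lower. By level, the set of genes up to 6.52 CPM had the lowest median, -0.40, with 6 higher and 15 lower, and the other sets had -0.22, -0.17 and -0.15. The other genes of the same ranges had medians of -0.01, 0.02, 0.02 and 0.01. Their calls were also most frequent at low levels, with 16.6%, 12.3%, 7.73% and 5.11% higher and 12.3%, 8.78%, 6.06% and 5.07% lower. Genes called lower had a median level of 8.11 CPM, those called higher 5.52 CPM and those not called 19.9 CPM, and the median exon lengths in the same order were 5.31, 4.92 and 5.52 kilobases.

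**Figure D4:**
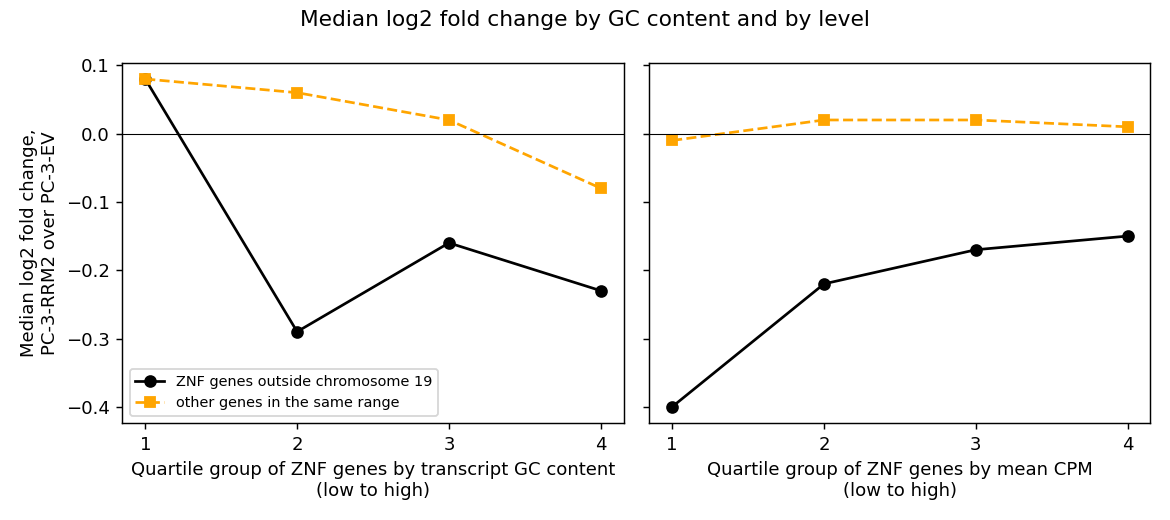
Median log2 fold change of PC-3-RRM2 over PC-3-EV in the quartile groups of the 210 zinc finger genes by transcript GC content (left) and by mean CPM (right), for these genes (black circles) and for the other genes in the same ranges (orange squares). The 2 sets meet at 0.08 in the group of lowest GC content, and the zinc finger genes lie lowest, at -0.40, in the group of lowest CPM.

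Other families of zinc finger genes were counted with the same fit, which over all genes tested called 9.97% higher and 8.19% lower. The chromosome 19 ZNF genes (203 tested) had 7 higher and 34 lower, with a median of -0.28, against -0.08 for the other 861 genes of that chromosome. ZSCAN genes, which pair fingers with a SCAN domain, had 0 higher and 5 lower of 16 (median -0.36), ZFP genes 0 and 4 of 15 (median -0.22) and ZBTB genes, with a BTB domain, 3 and 8 of 39 (median -0.14). ZKSCAN genes had no call among 6 (median -0.16). The KLF, SP and PRDM families had medians of -0.01, 0.05 and 0.00, with 1 higher and 2 lower of 13, 2 and 1 of 7, and 1 and 1 of 8.

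The partners through which KRAB zinc finger proteins act were counted from a list. This list of TRIM28, SETDB1, HP1 proteins, the NuRD and HUSH complexes and DNA methyltransferases had 37 genes tested, of which 1 was higher, 1 lower and 35 not called (2.70% each way, against 9.97% higher and 8.19% lower over all genes), with a median of 0.00. Its median level was 64.4 CPM, against 22 CPM over all genes. Of other genes above 40.5 CPM, 5.11% were higher and 5.07% lower. With any fold change, an edgeR adjusted p below 0.05 was reached by 5 higher and 3 lower partner genes, against 18.8% and 15.5% over all genes. FAM208A of this list lay just under the fold threshold (log2 fold change -0.55, edgeR adjusted p = 0.00218). TRIM28 itself had 235 and 181 CPM in PC-3-RRM2, against 213 and 246 CPM in PC-3-EV, and SETDB1 51.8 and 55.4 CPM, against 55.9 and 51.2 CPM, with overlapping libraries in both. The de novo DNA methyltransferase DNMT3B had 20.1 and 18.3 CPM in PC-3-RRM2, against 9.25 and 9.87 CPM in PC-3-EV (log2 fold change 1.01). ATRX, a chromatin remodeler of heterochromatin and telomeres, had 208 and 232 CPM in PC-3-RRM2, against 364 and 352 CPM in PC-3-EV (log2 fold change -0.70). In DNMT3B and ATRX the groups did not overlap.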

How the data were processed

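The authors sequenced total RNA from PC-3 cells and analyzed the reads in Partek Flow. No source used here gives the version, the aligner, the annotation or the strandedness. Per gene, the deposited table holds estimated counts that were not normalized, of which 56.0% to 57.7% per library were whole (tolerance 1e-09). All 4 sample columns matched a label, and 0 columns were left unmapped.

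Estimated counts were rounded, filtered by filterByExpr and scaled by TMM, and the groups were compared over all 15781 genes tested by edgeR 4.0.16 in R 4.3.3 (quasi-likelihood F-test) with Benjamini-Hochberg adjustment, without a block. The script was tested on simulated data. The exact permutation test of 2 against 2 cannot go below p = 0.333 and was not used. Exon length and GC content came from GENCODE release 29 and promoters from RefSeq. Alternatives used RLE and upper-quartile factors, other filters, DESeq2 (1.42.0), limma-voom (3.58.1), glmTreat, replicate blocks, a GC offset and leaving out each library. A further alternative was the main fit at any fold change.

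The members and lists were chosen with earlier results of these data known. Named genes were the called genes of largest change and smallest p, those at the thresholds, those of highest level, the leading called genes of each chromosome with 8 or more genes, the members of clusters and genes with known roles. Cluster members, partner genes and markers given beyond this rule were picked once their values had been seen.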

Additional observations from a re-analysis of the deposited data

How the results depend on the processing

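The main fit gave 9 higher and 33 lower genes and a median log2 fold change of -0.177. Against a 1.5-fold change itself (glmTreat) 1 was higher and 7 lower (0.476% and 3.33%, against 4.95% and 3.04% of all genes tested), and at any fold change 21 and 57. The median was -0.160 with a stricter filter on low counts and -0.192 with a GC offset. Leaving out each library in turn gave 5 to 12 higher, 33 to 37 lower and medians of -0.217 to -0.181; in each such fit 1 group had 1 library, assumed to vary like the other group. All other settings kept both counts within 1.5 times, and no called gene changed sign. DESeq2 gave 7 higher and 29 lower, against 1289 and 1055 of all 15781 genes. With the GC offset ZNF143 (0.550) and ZNF276 (-0.507) lost their call, and ZNF467 (0.96) was higher and ZNF84 (-0.59), ZNF287 (-0.62), ZNF396 (-0.84) and ZNF852 (-0.61) lower. Among the 164 tested genes that overlap no other listed gene, 7 were higher and 24 lower. Over all genes tested, 9.97% were higher and 8.19% lower. The cause of these changes was not tested.

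With the replicate number as a block the counts were 10 and 35, the median -0.180, and all 9 and 33 of the main calls were kept. Over all 15781 genes that block gave 1628 higher and 1396 lower. Same-numbered libraries did not deviate together (r = -0.269 across genes, which are not independent replicates). That r cannot decide whether the numbers pair libraries. The replicate differences followed GC content with opposite signs in the groups (over all genes, r = -0.58 in PC-3-RRM2 and 0.34 in PC-3-EV). The crossed pairing was added after seeing the data, like the GC offset and the overlap setting. With it 11 genes were higher and 34 lower, against 1722 and 1531 of all 15781 genes. Depth limits genes such as ZNF718, ZNF521 and ZNF596, with under 40 counts in every library.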
